A study of Mus musculus with 18 samples.

Results

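Il10, Areg, Ebi3, Il12a and Fgl2 encode secreted or shed factors through which regulatory T (Treg) cells restrain other immune cells or take part in tissue repair, and their RNA levels were followed across 6 sites of the mouse. The 5 genes were chosen by name as a working group of suppressive and repair factors, and each was found once among the 55487 Ensembl gene IDs measured in every library. RNA-seq of polyadenylated RNA was done on freshly sorted Treg cells (CD4-positive, Foxp3-positive T cells) from peripheral blood and from lung, liver, bone marrow, lymph node and spleen. All mice were wild-type and received no treatment, and each site had 3 libraries, 18 in all. The age and sex of the animals, the sorting gates, the reporter or stain used for Foxp3, and whether animals were pooled are not stated in the labels. Nor do the labels say that the 3 libraries of a site came from separate animals, so the p-values below measure the spread between these libraries, which may be technical. Circulating Treg cells are the reference, since the study set peripheral blood against the other sites.

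IL-10 is an anti-inflammatory cytokine that signals through a receptor made of Il10ra and Il10rb and dampens macrophage, dendritic cell and T cell activity. Amphiregulin, the product of Areg, is an EGF receptor ligand that is cut from the cell surface by the protease ADAM17 and promotes epithelial repair; Treg cells resident in non-lymphoid tissue are known for making it, often together with ST2 (Il1rl1), the receptor for IL-33. Ebi3 and Il12a encode the 2 chains that together form IL-35, and each chain also has another partner: Ebi3 pairs with Il27 to make IL-27, and Il12a pairs with Il12b to make IL-12. Fgl2 encodes fibrinogen-like protein 2, whose soluble form is secreted by Treg cells and acts through inhibitory Fc receptors, and whose membrane form on macrophages and endothelium has prothrombinase activity.

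Values are in TPM, a unit scaled for transcript length and to a common library total, so that each is a share of a library's transcripts. Differences were tested with limma on log2(TPM + 1), and log2 fold changes below are on that scale, which understates the change of genes with low values. A gene was called at a Benjamini-Hochberg adjusted p under 0.05, adjusted within each comparison over 16694 genes. In these bulk samples, fewer cells of a type and less RNA per cell cannot be told apart. Depth differed between sites. A single read added on average 0.378 TPM in liver, 0.233 in lung, 0.158 in spleen, 0.116 in bone marrow, 0.0878 in lymph node and 0.0832 in blood. These steps are for 1 kb of effective length, which is the transcript length less 210 to 240 bases. Low values were thus coarsest in liver.

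The Treg label was checked first. Foxp3 was detected in all 18 libraries, from 85.4 TPM in a blood library to 240 TPM in a lymph node library, and the summed TPM of 6 Treg markers (Foxp3, Il2ra, Ctla4, Ikzf2, Cd4 and Cd3e) averaged 809 in blood and 1369 to 2635 in the organs. Ctla4 made up 1486 TPM of the lung sum and 1064 TPM of the liver sum. Il2ra was not lowest in blood: it averaged 101 TPM there, against 57.1 in bone marrow, 76.25 in lung, 84.3 in liver, 128 in spleen and 234 in lymph node. Markers of other cells were present as well. The summed TPM of 9 monocyte and macrophage markers averaged 30.8 in lymph node, 68.6 in liver, 179 in spleen, 1060 in lung, 2985 in bone marrow and 8293 in blood, and that of 11 neutrophil markers 18149 in blood and 40711 in bone marrow against at most 645 elsewhere. Erythroid markers (7 genes) were highest in liver, at a sum of 11469 TPM, against 6467 in bone marrow, 2928 in blood and 74.4 in lymph node. Platelet markers (7 genes) summed to 2183 TPM in blood and 80.3 in bone marrow, with less elsewhere. B cell markers (8 genes) summed to 627 TPM in blood, 536 in spleen and 518 in bone marrow, and to 84.8 to 159 elsewhere. Because RNA of other cells lowers the TPM of T cell genes, values scaled to 20 general T cell genes are given for some results. Most contrasts of receptor, partner, regulator and related suppressive genes are given without them. The direction of some of those contrasts differs under that scaling. That scaling moved the median log2 difference of all tested genes in favour of blood by 0.72 against spleen, 0.91 against lymph node, 0.8 against liver, 0.48 against lung and 0.41 against bone marrow.

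All 5 genes differed among the 6 sites in the F test (adjusted p from 3.73e-13 for Areg to 1.06e-05 for Il12a), as did 68% of all tested genes. Their patterns were unlike one another. Il10 and Areg were lowest in blood and highest in lung and liver, Fgl2 was highest in blood, Ebi3 was lowest in lung, and Il12a was highest in bone marrow and listed at 0 in every liver library.

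**Figure D1:**
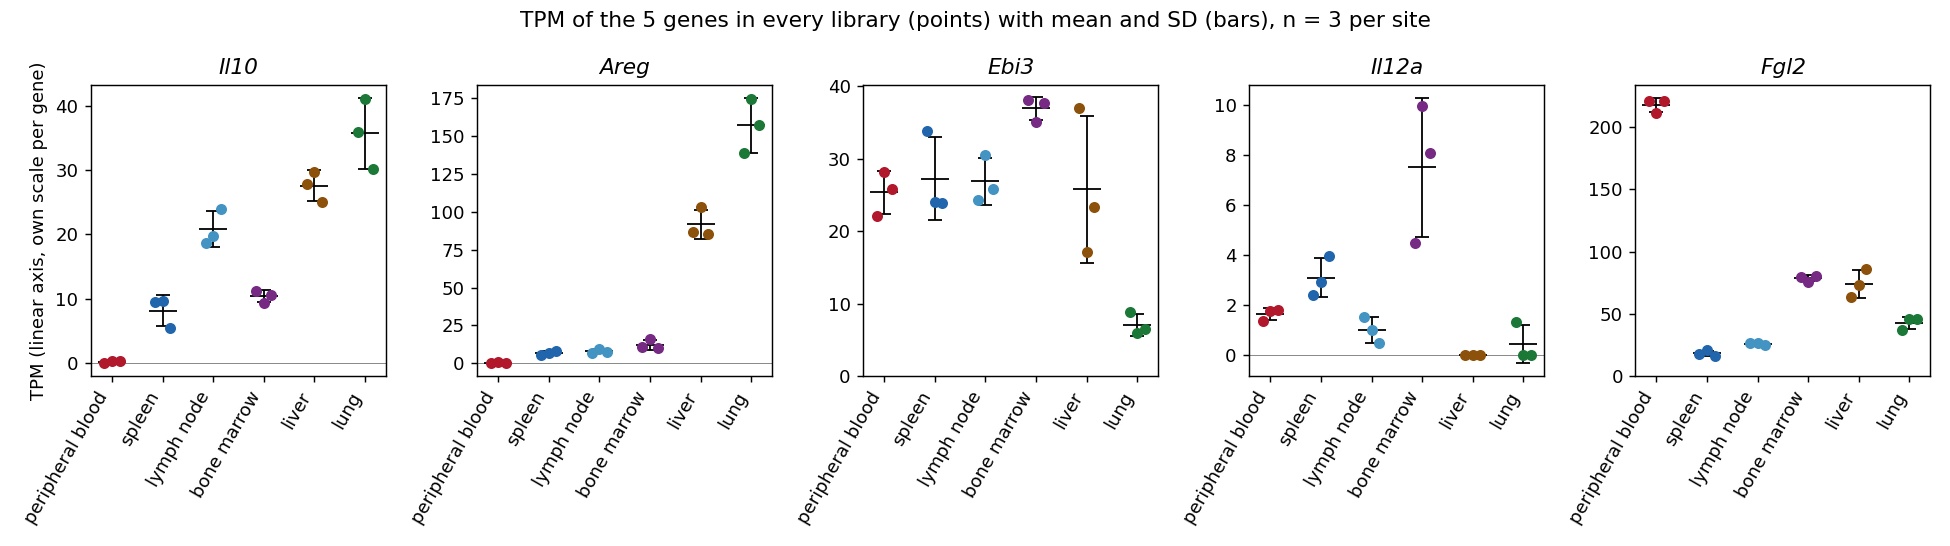
TPM of the 5 genes in each library by site, on a linear axis with its own scale for each gene; each point is 1 library, and the bars give the mean and SD of 3. Il10 and Areg rise from under 1 TPM in blood to 35.7 and 157 TPM in lung, whereas Fgl2 is highest in blood at 218 TPM.

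Il10 (ENSMUSG00000016529; mm10 chr1:131019845-131024974, plus strand) was close to the limit of detection in circulating Treg cells. Its level in the blood libraries was 0.07, 0.3 and 0.41 TPM, which corresponds to about 1, 4 and 5 reads, or 10 in all (exact Poisson interval 4.8 to 18.4, for counting error only). In spleen it was 9.5, 9.59 and 5.43 TPM, and in bone marrow 11.2, 9.36 and 10.5 TPM. All organ libraries lay above all blood libraries, with spleen and bone marrow overlapping each other.

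Il10 was higher again in lymph node, at 18.7, 19.7 and 24.0 TPM, and in liver, at 27.9, 29.7 and 25.0 TPM. In lung it reached 36.0, 41.0 and 30.1 TPM. The mean of 35.7 ± 5.47 TPM in lung (SD, n = 3) was 137 times the blood mean of 0.26 ± 0.17 TPM (SD, n = 3), a ratio that rests on the 10 blood reads.

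Against each organ, Il10 was called lower in blood by limma: by log2 -2.84 for spleen (SE 0.2, adjusted p = 1.23e-08), -3.18 for bone marrow (6.81e-09), -4.11 for lymph node (1.21e-10), -4.51 for liver (4.5e-11) and -4.86 for lung (1.83e-11). The direction and the call held under all 14 alternatives tried for each of these comparisons. Among the organs, the order of means was lung, liver, lymph node, bone marrow and spleen. Neighbours in it were mostly not separated: liver was not separated from lung (log2 difference -0.35, 95% interval -0.78 to 0.07, adjusted p = 0.188), nor lymph node from liver (-0.39, -0.82 to 0.03, 0.152; called with median-ratio scaling at -0.6, 0.0379), nor spleen from bone marrow (-0.34, -0.77 to 0.08, 0.253). Lymph node exceeded bone marrow (0.93, adjusted p = 0.00225), a call lost after scaling to T cell genes (0.34, adjusted p = 0.2), whereas the same scaling separated lung from liver (-0.72 for liver minus lung, adjusted p = 0.011) and spleen from bone marrow (-0.69, adjusted p = 0.0127).

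Areg (ENSMUSG00000029378; mm10 chr5:91139599-91148432, plus strand) had the widest range of the 5 genes. The blood libraries held 0.4, 0.57 and 0.45 TPM, from about 17 reads in all (exact Poisson interval 9.9 to 27.2). Spleen held 5.71, 6.59 and 7.93 TPM and lymph node 6.98, 9.55 and 7.24 TPM. These 2 lymphoid organs overlapped and stood clear of blood.

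Bone marrow held 10.7, 16.1 and 10.1 TPM of Areg. In liver the level was 86.8, 103 and 85.2 TPM, and in lung 139, 175 and 158 TPM. Liver and lung libraries therefore formed a separate upper range well above the highest bone marrow library.

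The lung mean of 157 ± 17.9 TPM (SD, n = 3) was 334 times the blood mean of 0.47 ± 0.09 TPM (SD, n = 3). Blood was called lower than spleen (log2 difference -2.39, SE 0.18, adjusted p = 2.72e-08), lymph node (-2.59, 8.42e-09), bone marrow (-3.15, 2.3e-09), liver (-5.97, 4.77e-13) and lung (-6.74, 1.21e-13), under all 14 alternatives in each case. Of the 15 pairs of sites, 14 differed, and the exception was spleen against lymph node (-0.2, 95% interval -0.58 to 0.18, adjusted p = 0.56). Lung exceeded liver (-0.77 for liver minus lung, adjusted p = 0.00329), a call lost when libraries were weighted by their quality (adjusted p = 0.231). Bone marrow exceeded lymph node only narrowly (-0.56 for lymph node minus bone marrow, adjusted p = 0.0323). Without bone marrow replicate 2 that difference was -0.37 (adjusted p = 0.191), and the call was also lost without lymph node replicate 1 (0.128) or lymph node replicate 3 (0.114).

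Markers of other cells that can make amphiregulin were not all highest where Areg was. Of 7 mast cell and basophil markers, 6 reached 1 TPM in blood and 6 in bone marrow, with summed means of 113 and 250 TPM, while 1 did in liver and 1 in lung (2.7 and 26.8 TPM), and Mcpt8 and Cpa3 were listed at 0 in every liver library. The 6 markers of group 2 innate lymphoid cells summed to 42.7 TPM in liver and 99.3 TPM in lung, against 3.7 to 20.9 TPM elsewhere. Calca made up 31.3 TPM of the liver sum and 93.1 TPM of the lung sum. In liver the rest was mostly Il17rb (7.5 TPM, against 9.49 TPM in lymph node), with Il13 at 1.79 TPM and Il5 at 1.54 TPM. Nmur1 was at 0.62 TPM in liver and 2.71 TPM in lung, below its 7.51 TPM in bone marrow, and Arg1 was listed at 0 at both sites. The part of these cells in the Areg values was not tested. The 8 lung epithelial markers summed to 259 TPM in lung, mostly Scgb1a1 (225 TPM), and to at most 17.4 TPM elsewhere, and their part in the lung value of Areg was not tested.

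Of the 250 bases before the RefSeq transcription start, taken from GRCm38.p6, windows were available for 4 of the 5 genes; Il10 was the exception. The windows of Areg and Ebi3 are shown because the genes lie at opposite ends of the lung pattern. Capitals mark TGACGTCA, the full cAMP response element, to which CREB, ATF and CREM proteins bind.

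Areg, chr5:91139349-91139598, plus strand: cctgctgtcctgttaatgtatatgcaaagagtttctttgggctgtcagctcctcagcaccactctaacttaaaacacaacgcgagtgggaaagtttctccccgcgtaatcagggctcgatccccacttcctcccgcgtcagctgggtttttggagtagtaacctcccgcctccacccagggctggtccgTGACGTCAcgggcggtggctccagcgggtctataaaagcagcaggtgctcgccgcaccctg

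Ebi3, chr17:55952373-55952622, plus strand: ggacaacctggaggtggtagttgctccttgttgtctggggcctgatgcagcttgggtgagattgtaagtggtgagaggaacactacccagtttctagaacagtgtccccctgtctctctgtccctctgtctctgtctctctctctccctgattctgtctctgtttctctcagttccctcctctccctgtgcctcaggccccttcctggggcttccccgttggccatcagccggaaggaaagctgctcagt

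The element stood 61 bases before the Areg start. It reads the same on both strands, and 1.55% of 32851 RefSeq windows of this length held it, while those of Ebi3, Il12a and Fgl2 did not. The AP-1 motif TGANTCA, searched on both strands and found in 6.75% of windows, occurred in that of Fgl2, 16 bases before the start, and in none of the others. These were 2 of 12 motifs searched, and they were picked after the matches had been seen, so that a match describes the letters and no binding.

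Ebi3 (ENSMUSG00000003206; mm10 chr17:55952640-55957022, plus strand) was expressed at a similar level in most sites and was lowest in lung. It stood at 22.1, 28.1 and 25.8 TPM in blood, 33.9, 24.1 and 23.9 TPM in spleen, and 24.3, 30.5 and 25.8 TPM in lymph node. Bone marrow held 38.1, 35.2 and 37.7 TPM, above each of those libraries. Liver spread widely, at 37.0, 17.1 and 23.3 TPM, and overlapped all sites but lung.

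In lung Ebi3 was at 8.79, 5.93 and 6.51 TPM, or 24 to 36 reads per library, below every library of the other sites. The lung mean of 7.08 ± 1.51 TPM (SD, n = 3) was called lower than that of blood (25.4 ± 3.01 TPM, log2 difference 1.72 for blood minus lung, SE 0.22, adjusted p = 1.1e-05 with limma). The same held against spleen (1.81, 8.32e-06), lymph node (1.8, 8.23e-06), bone marrow (2.25, 7.21e-07) and liver (1.68, 2.73e-05). Lung accounted for all 5 called pairs of the 15.

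Blood did not differ detectably from spleen (-0.09, 95% interval -0.57 to 0.39, adjusted p = 0.816), lymph node (-0.08, -0.56 to 0.39, 0.834) or liver (0.04, -0.44 to 0.51, 0.935), and its lower level than in bone marrow missed the threshold (-0.53, -1.01 to -0.06, 0.0854). That last difference was called with library weights (adjusted p = 0.00181) and with the compared sites fitted alone (0.00262), and bone marrow was also called above lymph node under both (0.00308 and 0.00597) and above spleen with library weights (0.0448). The comparisons of blood with spleen, lymph node and liver turned on the scaling. Relative to T cell genes, the mean of Ebi3 was 40.9 TPM in blood and 41.6 TPM in bone marrow against 23.4 TPM in spleen, 19.4 TPM in lymph node and 21.4 TPM in liver, and blood was then called higher than spleen (0.79, adjusted p = 0.0076), lymph node (1.04, 0.000993) and liver (0.97, 0.00153). Bone marrow was then also called above these 3 sites (adjusted p = 0.00897 for spleen, 0.0013 for lymph node and 0.00195 for liver). Without liver replicate 1, bone marrow was called above liver on the deposited scale too (0.86, adjusted p = 0.00294). Under the same scaling the median over all tested genes was 0.72, 0.76 and 0.87 in these comparisons. The low level in lung was called under all 14 alternatives in each comparison.

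Il12a (ENSMUSG00000027776; mm10 chr3:68690644-68698547, plus strand), the other chain of IL-35, was scarce everywhere. It stood at 1.36, 1.76 and 1.8 TPM in blood, 2.4, 2.91 and 3.94 TPM in spleen, and 1.5, 1.01 and 0.47 TPM in lymph node. Bone marrow was highest, at 4.48, 9.94 and 8.05 TPM, with no overlap with any other site. All 3 liver libraries and 2 lung libraries listed it at 0, and the other lung library held 1.3 TPM.

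Those listed zeros carry little weight, since the gene has 6 annotated transcripts, liver and lung were the shallowest sites, and in liver 27 genes were listed at 0 by 1 library while another gave them 100 TPM or more, which held for only 1 to 6 genes at each other site. Il12a was called lower in blood than in bone marrow (log2 difference -1.63, SE 0.34, adjusted p = 0.00139 with limma; 0.0676 with a pseudocount of 0.1). Blood was called higher than liver (adjusted p = 0.00344) and lung (1.0, adjusted p = 0.0252). The liver call was lost with library weights (adjusted p = 0.0659). The lung call was lost with library weights (0.104), with the compared sites fitted alone (0.0902), and without blood replicate 2 (0.0676), blood replicate 3 (0.0703), lung replicate 2 (0.0971) or lung replicate 3 (0.097). Blood was not separated from spleen (-0.62, 95% interval -1.33 to 0.1, adjusted p = 0.18) or lymph node (0.43, -0.28 to 1.15, 0.351). Between organs, bone marrow exceeded lymph node (-2.07 for lymph node minus bone marrow, adjusted p = 0.000211) and lung (2.63, 1.12e-05) under all alternatives. Calls for spleen over lymph node (adjusted p = 0.0487), bone marrow over spleen (0.0383) and lymph node over liver (0.0405) lay near the threshold and were kept in 3 of 14, 5 of 14 and 3 of 13 alternatives.

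Plasma cell markers were highest at the sites with the most Il12a, bone marrow and spleen, but in the other order. The 5 plasma cell markers summed to 167 TPM in spleen and 95.7 TPM in bone marrow, against at most 26.4 TPM in any library elsewhere, with Jchain at 130 and 61.9 TPM and Tnfrsf17 listed at 0 in every spleen library. Igha, an immunoglobulin heavy chain gene, had the most similar profile to Il12a over the 18 libraries (Pearson r 0.921), at 214 TPM in bone marrow, 44.7 TPM in spleen and 3.7 to 13.6 TPM elsewhere. Markers of other cells also peaked in bone marrow, at sums of 40711 TPM for neutrophils and 250 TPM for mast cells and basophils. Those sums were lower in spleen (530 and 7.8 TPM) than in blood (18149 and 113 TPM). The part of any of these cells in the Il12a values was not tested.

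Fgl2 (ENSMUSG00000039899; mm10 chr5:21372642-21378374, plus strand) ran opposite to Il10 and Areg in blood. It was at 221, 212 and 221 TPM in blood, 79.5, 75.8 and 80.1 TPM in bone marrow, and 63.1, 73.2 and 86.1 TPM in liver. Blood stood far above all organs, and bone marrow and liver overlapped. Lung held 37.1, 45.6 and 45.4 TPM, lymph node 26.5, 26.7 and 24.9 TPM, and spleen 17.7, 20.6 and 16.2 TPM, 3 ranges that did not overlap.

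The blood mean of 218 ± 5.62 TPM (SD, n = 3) was 12 times the spleen mean of 18.2 ± 2.24 TPM (SD, n = 3). Blood was called higher than spleen (log2 difference 3.52, SE 0.11, adjusted p = 2.33e-12), lymph node (3.02, 8.23e-12), lung (2.33, 1.39e-10), liver (1.55, 1.77e-08) and bone marrow (1.46, 8.1e-08), under all 14 alternatives in each case. Of the 15 pairs, 14 differed. Bone marrow and liver were not separated (0.09, 95% interval -0.15 to 0.33, adjusted p = 0.576), although scaling to T cell genes set bone marrow higher (0.53, adjusted p = 0.000751). Spleen fell below lymph node (-0.5, adjusted p = 0.00704), a call lost with that scaling (0.167) and with median-ratio scaling (0.1).

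Fgl2 is also made by monocytes and macrophages, and all 9 of their markers were above 1 TPM in blood, bone marrow and spleen. Blood, the site with the highest Fgl2, also had the highest marker sum (8198 to 8431 TPM), with Lyz2 at 7469 TPM and Csf1r at 206 TPM. Bone marrow was second in both, with 78.5 TPM of Fgl2 and a sum of 2985 TPM. The other sites did not keep the same order: liver held 74.1 TPM of Fgl2 with a marker sum of 68.6 TPM, lung 42.7 TPM with a sum of 1060 TPM, and spleen 18.2 TPM with a sum of 179 TPM. The markers of CD8 T and natural killer cells also peaked in blood, at a sum of 611 TPM against 77.2 to 117 TPM in the organs. The part of either cell type in the Fgl2 values was not tested.

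**Figure D2:**
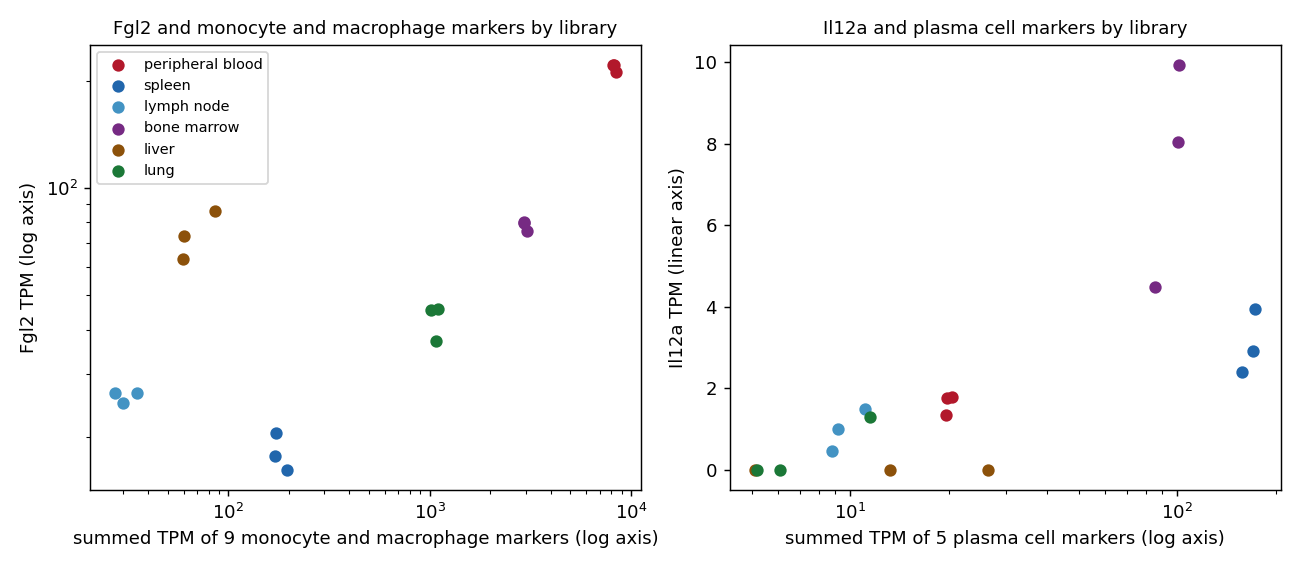
Left, TPM of Fgl2 in each of the 18 libraries against the summed TPM of 9 monocyte and macrophage markers; right, Il12a against the summed TPM of 5 plasma cell markers, with 1 point per library coloured by site. Blood is highest on both axes on the left, while liver (mean 74.1 TPM of Fgl2) lies above lung (42.7 TPM) at a lower marker sum.

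Counted by comparison, 2 of the 5 genes were lower and 1 higher in blood than in spleen, where 15.3% of all tested genes were lower and 20.1% higher. Against lymph node the counts were again 2 and 1 (background 21% and 16.4%), against bone marrow 3 and 1 (18.8% and 13%), against liver 2 and 2 (16.1% and 23.3%), and against lung 2 and 3 (17.3% and 26.4%). Il10 and Areg were the lower pair each time, joined by Il12a in bone marrow, and Fgl2 was higher each time. After scaling to T cell genes the split became 2 lower and 2 higher for spleen, 2 and 3 for lymph node, and 2 and 3 for liver, with Ebi3 added each time and Il12a added for lymph node. The median log2 difference of all tested genes was then 0.72 for spleen, 0.76 for lymph node and 0.87 for liver. Between organs, the share of all genes called was 14.3% for spleen against lymph node, 22.5% for lymph node against bone marrow, 24.1% for spleen against bone marrow, 31.1% for lymph node against liver, 31.3% for spleen against liver, 34.5% for bone marrow against liver, 34.9% for liver against lung, 40.8% for spleen against lung, 42.3% for lymph node against lung and 43.5% for bone marrow against lung. Read against these, Areg and Fgl2 each differed in 9 of the 10 organ pairs, Il12a in 8, Il10 in 7 and Ebi3 in 4. The Il12a count includes the calls near the threshold named above and calls that rest on its listed zeros in liver. The 5 blood comparisons share the blood libraries and are not independent of one another.

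**Figure D3:**
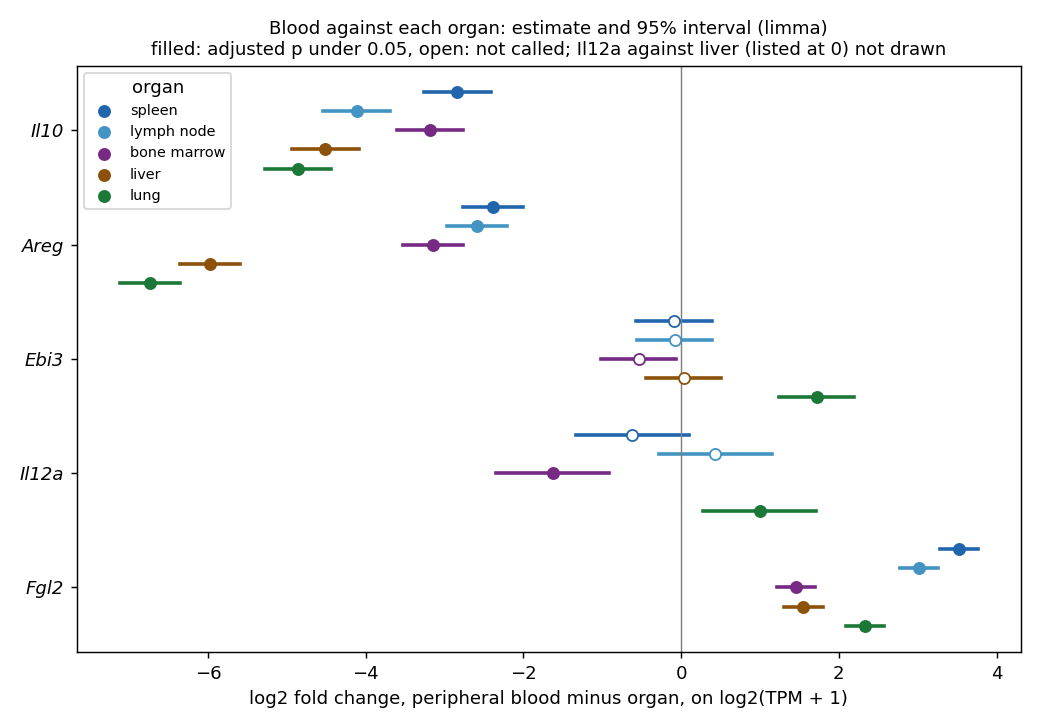
Log2 fold change of blood minus each organ on the log2(TPM + 1) scale, with 95% intervals from limma; filled points are called and open points are not. Il10 and Areg lie left of 0 in all 5 comparisons and Fgl2 right of 0, while Ebi3 is called for lung alone; Il12a against liver, where it is listed at 0, is not drawn.

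**Figure D4:**
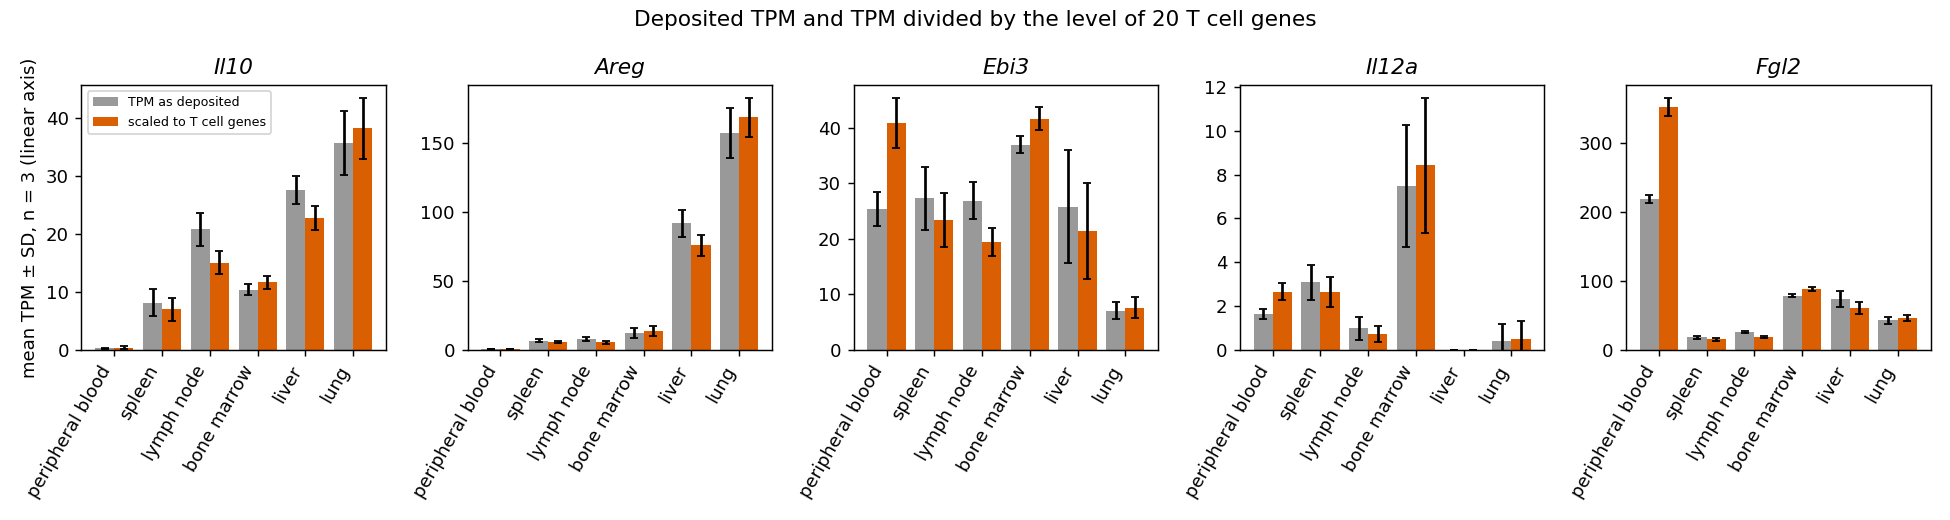
Mean TPM of the 5 genes by site as deposited and after scaling each library to 20 T cell genes, with error bars of 1 SD over 3 libraries. Ebi3 in blood moves from 25.4 to 40.9 TPM and in lymph node from 26.9 to 19.4 TPM, while lung remains lowest for Ebi3 and blood lowest for Il10 and Areg.

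The genes that serve these factors were then read from 5 lists of 56 genes, of which 50 passed the filter on low values. In blood, 19 were lower and 18 higher than in spleen, 25 and 13 for lymph node, 21 and 13 for bone marrow, 24 and 12 for liver, and 28 and 13 for lung. Of all tested genes, 15.3% were lower and 20.1% higher for spleen, 21% and 16.4% for lymph node, and 18.8% and 13% for bone marrow. The shares were 16.1% and 23.3% for liver, and 17.3% and 26.4% for lung. The median log2 difference of the list genes was -0.06, -0.33, -0.24, -0.35 and -0.91 in that order, against 0, -0.15, -0.11, 0.07 and 0.12 for all tested genes. The split depended on scaling. Relative to T cell genes, 10 were lower and 30 higher for spleen, 10 and 28 for lymph node, 17 and 22 for bone marrow, 18 and 22 for liver, and 23 and 16 for lung. That scaling raised genes in blood at large. The median over all tested genes became 0.72 for spleen, 0.76 for lymph node, 0.3 for bone marrow, 0.87 for liver and 0.6 for lung. These rescaled counts are therefore not a trait of the lists alone.

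The IL-10 receptor chains were highest in blood, where their ligand was lowest. Il10ra, the ligand-binding chain, averaged 93.5 ± 3.42 TPM in blood (SD, n = 3) against 37.8 to 60.6 TPM in the organs, and was called higher in blood in all 5 comparisons (log2 difference 0.62 to 1.29). Il10rb, the shared chain, was at 80.4 ± 3.65 TPM in blood against 53.2 to 69.8 TPM, called in 4 comparisons and missing the threshold for bone marrow (0.2, adjusted p = 0.243). Myeloid, CD8 T and natural killer cells also express both chains. Blood had the highest sums of monocyte and macrophage markers (8293 TPM) and of CD8 T and natural killer markers (611 TPM). Neutrophil markers were highest in bone marrow instead (40711 TPM, against 18149 TPM in blood). The part of these cells was not tested. Maf and Batf, transcription factors known to promote Il10, were lower in blood than in all 5 organs: Maf was at 20.6 TPM in blood and 132 TPM in liver (-2.62, SE 0.06, adjusted p = 2.23e-14), and Batf at 42.8 TPM in blood and 212 TPM in lung (-2.29, 9.12e-12). Socs3, a feedback inhibitor induced by STAT3 signalling, stood at 132 TPM in blood and 592 TPM in lung (-2.16, 6.36e-11), but was higher in blood than at the other 4 sites (0.32 to 1.02, adjusted p at most 0.017). Bhlhe40, a repressor of Il10 in T cells, was at 29.1 TPM in blood and 404 TPM in lung (-3.75, 2.9e-13), and was not called against lymph node (0.1, 0.524).

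Other regulators of Il10, named here after their values were seen, varied with the organ. Nfil3 was higher in blood than in spleen (0.95), lymph node (0.97) and bone marrow (0.54) and lower than in liver (-1.03) and lung (-2.03), all called. On the deposited scale, Irf4 and Ahr were higher in blood than in spleen (0.34 and 0.64), lower than in lymph node, liver and lung, and not called against bone marrow. With T cell scaling, Irf4 averaged 33.17 TPM in blood, above lymph node (25.05), liver (26.95) and lung (30.43). The scaled mean of Ahr in blood (15.55 TPM) was above lymph node (10.62) and still below liver (19.98) and lung (20.11). Prdm1 was lower in blood than in 4 organs and not called against spleen (-0.22, adjusted p = 0.339). Of the 13 genes of that list, 3 were lower and 7 higher in blood than in spleen, 7 and 4 for lymph node, 5 and 4 for bone marrow, 7 and 3 for liver, and 10 and 3 for lung. The share of all tested genes was 15.3% lower and 20.1% higher for spleen, 21% and 16.4% for lymph node, and 18.8% and 13% for bone marrow. It was 16.1% and 23.3% for liver, and 17.3% and 26.4% for lung.

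Genes linked to amphiregulin followed Areg in part. Il1rl1, which encodes ST2, averaged 12.5 TPM in blood, 17.4 in spleen, 25.5 in lymph node, 114 in bone marrow, 156 in liver and 266 in lung, and was called lower in blood each time (-0.44 to -4.31). Relative to T cell genes, its mean in blood (20.15 TPM) was above spleen (14.9) and lymph node (18.4). It stayed below bone marrow (128), liver (129) and lung (286). Bone marrow was thus well above lymph node in Il1rl1 but close to it in Areg. Crem, a cAMP-responsive transcription factor gene, went from 11.8 TPM in blood to 503 in liver and 1337 in lung (-6.78 for blood minus lung, SE 0.2, adjusted p = 3.19e-13), and Gata3, a factor of type 2 and tissue Treg cells, from 29.5 to 189 TPM in lung (-2.64, 4.65e-13).

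The shedding machinery of amphiregulin did not show the Areg pattern. Adam17, the sheddase, averaged 48.9 TPM in blood and 34.6 to 65.0 TPM in the organs, with no call in 5 comparisons (adjusted p from 0.0941 to 0.651). Rhbdf2, which encodes the ADAM17 partner iRhom2, was higher in blood at 28.5 TPM than in lung at 6.08 TPM (2.1, adjusted p = 1.43e-06). Bone marrow was next at 19.9 TPM and was not separated from blood (0.5, adjusted p = 0.114). Blood and bone marrow also had the most monocyte and neutrophil marker RNA, whose part in the Rhbdf2 values was not tested. Egfr, the receptor of amphiregulin, was at 0 to 2.18 TPM on average and was called in no comparison. Of the 14 tested genes of that list, 3 were lower and 1 higher in blood than in spleen, 5 and 1 for lymph node, 5 and 0 for bone marrow, 4 and 1 for liver, and 6 and 1 for lung. Of all tested genes, 15.3% were lower and 20.1% higher for spleen, 21% and 16.4% for lymph node, and 18.8% and 13% for bone marrow. The shares were 16.1% and 23.3% for liver, and 17.3% and 26.4% for lung.

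For the chains of IL-35, IL-27 and IL-12, partner chains were mostly at or near 0. Il12b was listed at 0 in 15 of 18 libraries and reached 0.34 TPM at most, and Il23a was at 0.61 TPM at most, so neither was tested. Il27, the partner of Ebi3, averaged 4.83 ± 0.74 TPM in blood and 2.0 ± 1.08 TPM in bone marrow (SD, n = 3) and was listed at 0 in all libraries of the other 4 sites. The 2 sites with Il27 were those with the most monocyte and neutrophil marker RNA, whose part was not tested. Ebi3 exceeded Il12a in mean TPM at every site, by 25.4 to 1.64 TPM in blood and 37.0 to 7.49 TPM in bone marrow.

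Receptor chains of this cytokine family differed by site. Il27ra, a chain of the IL-27 receptor, averaged 84.5 TPM in blood and 197 TPM in lymph node (-1.21, adjusted p = 1.94e-07), and Il6st, which encodes gp130, 57.1 TPM in blood, 97.3 in lymph node and 26.8 in bone marrow (1.07 for blood minus bone marrow, 9.16e-08). Relative to T cell genes, Il27ra lay close together in blood and lymph node, at 136 and 143 TPM. Il6st was then higher in blood (92.1 TPM) than in lymph node (70.3) and bone marrow (30.1). Il12rb1 was lower in blood, at 7.55 TPM, than in bone marrow at 34.1 TPM (-2.05, 2.39e-07), whereas Il12rb2, the signalling chain for IL-12 and IL-35, was at 5.69 TPM in blood, 5.87 ± 3.45 TPM in lung and under 1 TPM at the other sites. Stat4, which acts downstream of IL-12, stood at 58.9 TPM in blood and 273 TPM in lung (-2.2, 2.64e-11).

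Among the genes linked to Fgl2, the Fc receptors were higher in blood and Tigit was lower, in all 5 comparisons. Fcgr2b, the inhibitory receptor that binds soluble FGL2, averaged 90.0 ± 7.29 TPM in blood against 2.77 TPM in lymph node and 17.1 to 29.6 TPM elsewhere (1.57 to 4.62, adjusted p at most 0.000641). Monocyte and macrophage markers (8293 TPM) and B cell markers (627 TPM) were also highest in blood, and the part of those cells in the Fcgr2b values was not tested. Fcgr3 went from 0.24 TPM in lymph node to 267 TPM in blood (7.77, adjusted p = 2.1e-12) and Fcer1g from 1.23 to 464 TPM (7.75, 1.48e-11). Both are textbook myeloid genes, and their order over the sites, with blood ahead of bone marrow and bone marrow ahead of lung, was that of the monocyte and macrophage sum, whose part was not tested. Tigit, an inhibitory receptor whose engagement is known to induce Fgl2 in Treg cells, was at 15.2 TPM in blood, where Fgl2 was highest, and 453 TPM in lung (-4.81, adjusted p = 6.81e-15). Fgl1, a relative of Fgl2, was listed at 0 in all 18 libraries.

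Of 12 other suppressive factors, 8 were lower and 4 higher in blood than in spleen, 8 and 3 for lymph node, 7 and 3 for bone marrow, 9 and 3 for liver, and 9 and 3 for lung, where 17.3% of all tested genes were lower and 26.4% higher. Those shares were 15.3% and 20.1% for spleen, 21% and 16.4% for lymph node, 18.8% and 13% for bone marrow, and 16.1% and 23.3% for liver. The 3 that were higher in blood than in lung, named after their values were seen, were Prf1, which encodes perforin (36.4 and 8.42 TPM, 1.99, adjusted p = 3.31e-05), Entpd1, which encodes the ectoenzyme CD39 (78.5 and 24.9 TPM, 1.68, 0.000461), and Tgfb1 (195 and 142 TPM, 0.46, 0.00107). The CD8 T and natural killer markers, whose cells express Prf1, were also highest in blood. So were the platelet markers (2183 TPM in blood, 12.8 TPM in lung) and the monocyte and macrophage markers (8293 and 1060 TPM). The part of these cells in the values of Prf1, Entpd1 and Tgfb1 was not tested. Among the lower genes, Pdcd1, which encodes PD-1, was at 4.66 TPM in blood and 295 TPM in lung (-5.71, adjusted p = 8.02e-17), Icos at 30.7 and 422 TPM (-3.74, 1.32e-15), and Ctla4 at 134 and 1486 TPM (-3.46, 7.43e-16). Lag3 peaked in lymph node at 83.1 TPM against 2.22 TPM in blood (-4.73, 4.27e-11).

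**Figure D5:**
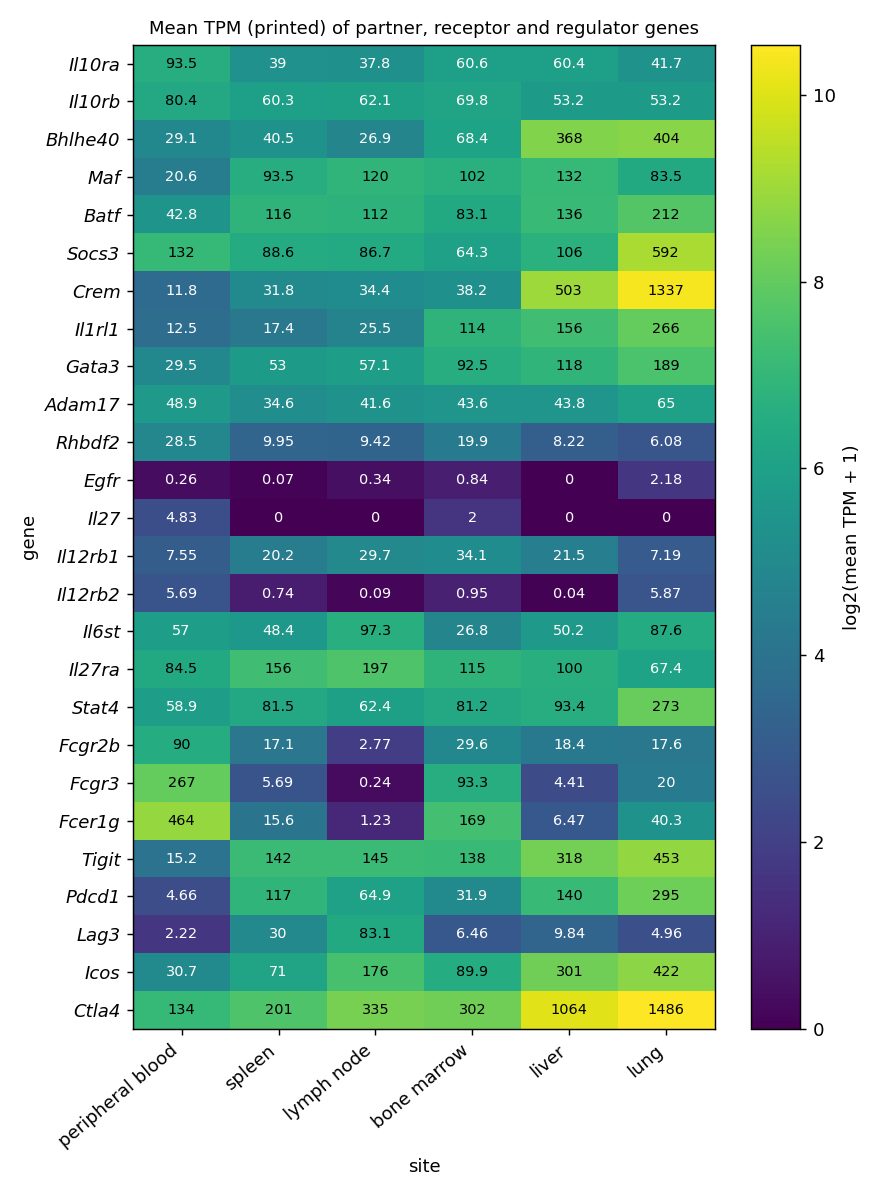
Mean TPM over 3 libraries, printed in each cell, of 26 partner, receptor, regulator and related suppressive genes at the 6 sites, coloured by log2(mean TPM + 1). Crem, Il1rl1, Tigit and Ctla4 are highest in lung, the Fc receptor genes and Il10ra are highest in blood, and Adam17 lies between 34.6 and 65.0 TPM.

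Genes with the most similar profiles were sought by Pearson correlation of log2(TPM + 1) over the 18 libraries among 9408 genes, as a description of points that share libraries, sites and depth. Il10 was closest to Camk4 (r 0.97), Ccr4 (0.969), Tigit (0.964), Ccr8 (0.963) and Cish (0.962), of which Ccr4 and Ccr8 are homing receptors. Areg was closest to Ctla4 (0.975), Cenpa (0.971), Crem (0.968), Ass1 (0.968) and Lamc1 (0.966). Ebi3 was closest to Rgs14 (0.961), Lrch4 (0.951), Rps6ka1 (0.947), Ppp1r9b (0.945) and Ppp1r18 (0.936), and these 5 were lowest in lung too, at 27.8 to 82.0 TPM.

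Fgl2 was closest to Il10ra (0.959), Xdh (0.957), Cd44 (0.952), Lsp1 (0.95) and Ehd4 (0.95), and Il12a, after Igha, to P4hb (0.904), Tkt (0.887), Tmcc2 (0.874) and Tbccd1 (0.867). Within the group itself, Il10 and Areg correlated at 0.87, Ebi3 and Il12a at 0.55, and Fgl2 with Il10 at -0.6. Both chains of IL-35 had their highest mean in bone marrow, but for Ebi3 that mean was called above lung alone on the deposited scale with all libraries and equal weights.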

How the data were processed

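The authors deposited 1 table per library of TPM values for 55487 Ensembl gene IDs, to 2 decimals, per the file headers; STAR, RSEM and mm10 are named in the submitters' processing notes, without versions. The annotation and the use of strand in counting are not given in the sources used here. Symbols and gene positions came from GENCODE M21 (346 IDs had none). TPM sums ran from 999999.27 to 1000000.62 per library, 14314 to 19797 genes were above 0, and no 2 libraries held identical values. Reads were estimated from the steps between low TPM values of 12062 genes with 1 transcript, where 86.4% to 92.3% of values of up to 6 reads fell within 0.1 of a whole number. A first scoring of the steps failed on simulated data and was replaced; the second was within 2.11% on levels averaged over libraries, but still failed on levels simulated from liver alone. Reads served only to describe depth.

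limma 3.58.1 (R 4.3.3; Python 3.11.15 for tables) was fitted on log2(TPM + 1) over all 18 libraries with a mean per site, trend and robust variances, for the 16694 genes that averaged 1 TPM or more at some site; p-values were adjusted by Benjamini-Hochberg within each comparison. The members and lists were chosen with earlier results of these data known. Named genes were the 5 members, their receptors, partner chains and sheddase, and in each list the up to 4 genes with the largest called difference from blood and a mean of at least 10 TPM at the higher site; for likeness, the 5 highest correlations. Alternatives were the pseudocount, no filter, 3 scalings (20 T cell genes; median ratio; abundant RNA classes removed), library weights, the compared sites alone, a replicate block and each library left out.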

Additional observations from a re-analysis of the deposited data

How the results depend on the processing

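Every comparison of blood with an organ for Il10, Areg and Fgl2, and every comparison of lung with another site for Ebi3, kept its direction and call under every alternative run for it. The counts changed most with T cell scaling: 2 of the 5 genes were then higher in blood than in spleen and 3 than in lymph node, 10 list genes were lower and 30 higher in blood than in spleen, 10 and 28 for lymph node, 22 were higher for bone marrow and 22 for liver, and 11 pairs of sites differed for Ebi3. The median log2 difference of all tested genes was then 0.72 for blood minus spleen, 0.76 for lymph node, 0.3 for bone marrow and 0.87 for liver. With library weights, 8 pairs differed for Ebi3 and 1 of the 5 genes was higher in blood than in liver. With 1 library left out, 7 to 12 pairs differed for Il12a (7 without blood replicate 2 or 3), against 11.

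Directions that turned were all of differences not called as reported. With T cell scaling these were Areg for spleen minus lymph node (0.015), Il12a for blood minus spleen (0.01), and Ebi3 for blood minus spleen (0.792), blood minus lymph node (1.037) and lymph node minus liver (-0.07). With median-ratio scaling they were Ebi3 for blood minus lymph node (0.162) and lymph node minus liver (-0.09), and Fgl2 for bone marrow minus liver (-0.053). With abundant RNA classes removed they were Ebi3 for blood minus liver (-0.04) and Fgl2 for bone marrow minus liver (-0.036), and with library weights Ebi3 for spleen minus lymph node (-0.001). Over the left-out libraries, Ebi3 ran from -0.172 to 0.07 for blood minus spleen, -0.157 to 0.011 for blood minus lymph node, -0.211 to 0.322 for blood minus liver, -0.151 to 0.101 for spleen minus lymph node, -0.121 to 0.412 for spleen minus liver and -0.13 to 0.403 for lymph node minus liver, Il12a from -0.601 to 0 for liver minus lung, and Fgl2 from -0.016 to 0.205 for bone marrow minus liver. The cause was not tested.

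Deviations of same-numbered libraries were nearly uncorrelated (-0.034 to 0.03 over 45 pairs, mean 0.006, against a mean of -0.003 for other numbers). Of the 18 libraries, 9 correlated best with their own number. Whether same-numbered libraries shared an animal cannot be told from these values, and the labels do not say. With the replicate block all 5 genes still differed among the sites; it ended 3 calls, all of Il12a: spleen minus lymph node (1.051, adjusted p = 0.0747 with limma), spleen minus bone marrow (-1.015, 0.0586) and lymph node minus liver (0.962, 0.0595). Depth limits Il12a in liver and lung and Il10 and Areg in blood.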
